A study of Homo sapiens with 6 samples.

Results

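The genes described here encode the actin cytoskeleton and the focal adhesions of HepG2 cells, an established human liver tumor line. They are 39 genes named by symbol, out of the 57773 gene rows of the deposited table, and 38 of them had enough reads to be tested. RNA was sequenced from 6 cultures, of which 3 received human recombinant TGFβ1 ligand at 5 ng/mL for 3 h and 3 received vehicle for the same time. All cultures were unedited cells of this single line, grown in medium with serum. By the paper's methods the cells of both groups were then washed and moved to serum-free medium, to which ligand or vehicle was added. The comparison asked which RNAs differed soon after the ligand was added. The labels number the cultures 1 to 3 in each group, and the paper's methods describe the replicates as independent, so the p-values below measure the spread between these 6 cultures of 1 line.

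Actin polymerizes into filaments that myosin II pulls on, tropomyosins, calponins and caldesmon coat, and α-actinins and filamins link into bundles and networks. At focal adhesions, plaque proteins such as talin, vinculin, paxillin, zyxin and the tensins join these bundles to integrins, the receptors that hold the extracellular matrix. In many epithelial cells, prolonged TGFβ signaling is known to go along with stress fibers and larger adhesions. Many genes of the system are known targets of SRF, a transcription factor that binds CArG boxes and whose cofactors, the MRTF proteins, are held inactive by unpolymerized actin.

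Between 60815385 and 88415362 reads per vehicle culture and between 73263662 and 100099136 per TGFβ culture were counted on genes. The 39 genes held 1.35% to 1.44% of these reads in vehicle and 1.44% to 1.66% in TGFβ. All 8 hepatocyte markers examined were present, with a summed level of 7074 to 7818 RPKM (reads scaled by gene length and by library size) in vehicle and 6553 to 7737 in TGFβ, and 0 of them passed the test. The 12 fibroblast or smooth muscle markers summed to 2.09 to 2.49 RPKM in vehicle and 3.10 to 4.73 in TGFβ. Of the 12, 8 had too few reads to be tested and 0 of the other 4 passed. PDGFRB moved most in that sum, from a mean of 0.789 to 1.80 RPKM (log2 fold change 1.22, edgeR FDR 0.0582), and COL1A1 went from 0.633 to 0.917 RPKM (log2 fold change 0.57, edgeR FDR 0.193). The part of these markers in the results below was not tested. VIM had 0 reads in every vehicle culture and 0, 3 and 1 in TGFβ. DES, LUM, DCN and COL1A2 had at most 8 reads in any culture. Endothelial markers summed to at most 0.0286 RPKM, and of the 3 leukocyte markers CD68 carried nearly the whole sum of 13.4 to 14.5 RPKM. Cultures 1 of both groups shared a sequencing lane, as did cultures 2, while cultures 3 were on different lanes.

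Short sequence motifs were looked for on both strands in the 250 bases before each RefSeq start, in 62 windows that covered 35 of the genes, since the genes are known as a set for their SRF sites. ACTB, TAGLN, MYL9 and CTTN had no window. A CArG box lay in 5 of the 62 windows (8.06%) and in 1.16% of all 35116 windows, and the 5 matches belonged to ACTG1, FLNA, CNN2, TPM4 and ACTN1. All 5 matches are shown. These 5 genes all passed the test below only when cultures were paired by number. In all, 14 of the 38 tested genes did so, and a link between the CArG box and this outcome was not tested. The RefSeq start used lay 11048 bases from the annotated 5′ end of the gene for ACTG1, 1874 for ACTN1 and at most 517 for FLNA, CNN2 and TPM4. Each line gives the gene's own strand, 5′ to 3′, with the GRCh37 position and the match in capitals.
ACTG1, chr17:79479900-79479929, minus strand: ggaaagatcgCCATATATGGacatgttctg
FLNA, chrX:153603077-153603106, minus strand: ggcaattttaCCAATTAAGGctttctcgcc
CNN2, chr19:1026508-1026537, plus strand: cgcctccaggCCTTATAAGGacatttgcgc
TPM4, chr19:16178165-16178194, plus strand: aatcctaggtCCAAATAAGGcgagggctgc
ACTN1, chr14:69444435-69444464, minus strand: acgctcatgtCCAAAAATGGtaacattcat

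The 6 genes that passed the test without pairing (TNS1, SYNPO, TNS3, PDLIM7, ZYX and PXN) had 14 windows, and a CArG box lay in 0 of them. The SMAD core CAGAC lay in 6 of these 14 windows (42.9%), in 28 of the 62 (45.2%) and in 38.0% of all windows. The TEAD motif GGAATG lay in 3 of the 14 (21.4%), in 13 of the 62 (21.0%) and in 11.9% of all. The AP-1 motif TGANTCA lay in 0 of the 14, in 5 of the 62 (8.06%) and in 6.57% of all. Windows of 1 gene can overlap, and a match is a run of letters and not a measured binding site. Stretches from the genes that passed are shown with the match in capitals, chosen after the scan was seen. The first TNS1 stretch holds CAGAC once on each strand, side by side. It belongs to a RefSeq start inside the gene, 152807 bases from the annotated 5′ end. The second TNS1 stretch belongs to a start 82759 bases from that end, and the PXN stretch to one 15608 bases inside PXN. In both genes the window nearest the annotated end (7280 bases away for TNS1, 41 for PXN) held none of these motifs.
TNS1, chr2:218715121-218715150, minus strand, CAGAC: cctcagagctGTCTGCAGACaagaggaccc
TNS1, chr2:218785042-218785067, minus strand, GGAATG: cccgtgtgagGGAATGaagcaggggg
TNS3, chr7:47621942-47621959, minus strand, CAGAC: tggGTCTGataattccag
ZYX, chr7:143078331-143078355, plus strand, CAGAC: tccttgtatgGTCTGggcgccgctc
PXN, chr12:120688018-120688043, minus strand, GGAATG: tttccaggaaCATTCCtcttccttag

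In vehicle, the cytoplasmic actins stood far above the rest. ACTG1 was at 729 ± 46.0 RPKM and ACTB at 665 ± 36.98 (mean ± SD, n = 3), and the ranges of the pair overlapped. The next in order were the myosin heavy chain MYH9 at 85.7 ± 6.33 RPKM, the filamin FLNA at 81.5 ± 6.69 and the filament-severing cofilin CFL1 at 72.2 ± 7.02, and each of these overlapped its neighbor. Of the 39 genes, 29 lay above 10 RPKM, 5 between 1 and 10, and 5 below 1. The 5 lowest were CNN1 at 0.831 RPKM, TPM2 at 0.760, TNS1 at 0.656, SYNPO at 0.310 and MSN at 0.0151. Of the 38 neighboring pairs in this order, 25 overlapped between cultures, so the order within stretches of it was not resolved. The smooth muscle actin ACTA2 stood at 10.8 ± 0.509 RPKM. FAS, which overlaps 734 bases of it on the other strand, held 78.6% as many reads over its whole row.

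**Figure D1:**
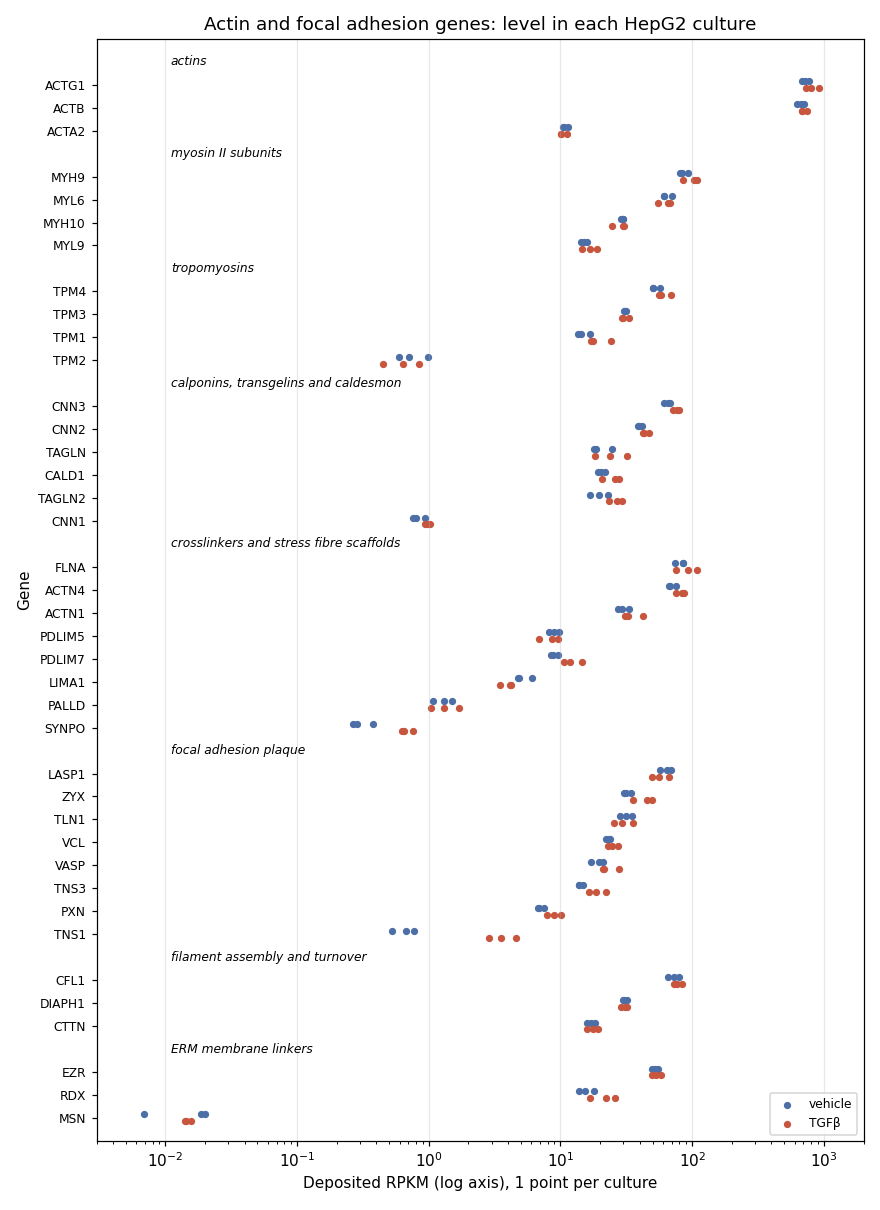
Deposited RPKM of each gene (log axis), 1 point per culture, vehicle in blue and TGFβ in red, grouped by role. ACTG1 and ACTB lie above 600 RPKM, and the TGFβ points of TNS1 and SYNPO lie to the right of all their vehicle points.

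With TGFβ, 6 of the 38 tested genes rose and 0 fell at an FDR under 0.05 (15.8% higher). The test was edgeR's quasi-likelihood test without a block, adjusted over all 22747 tested genes, of which 3.11% were higher and 1.01% lower. Of the 6, 4 encode focal adhesion plaque proteins (TNS1, TNS3, ZYX and PXN) and the others are the stress fiber scaffolds SYNPO and PDLIM7. At an unadjusted p under 0.05 there were 17 higher and 1 lower of the 38, beside 8.69% higher and 4.97% lower of all tested genes. DESeq2 called 10 higher and 1 lower, beside 5.15% and 2.08% of the 19660 genes to which it gave an adjusted p. The median log2 fold change of the 38 was 0.21, beside -0.0054 over all tested genes, and 30 of the 38 (78.9%) were positive, beside 49.0% of all. The genes were chosen with earlier results of these data known, so these shares describe the set and do not test it. In bulk RNA, fewer cells of a type and less RNA per cell cannot be told apart.

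TNS1 (ENSG00000079308, chr2:218664512-218867718, minus strand) encodes tensin 1, which ties actin filaments to integrin tails. Its TMM-scaled CPM values (counts relative to library size) were 14.6, 9.71 and 12.8 in vehicle cultures 1 to 3 and 67.7, 85.6 and 57.2 in TGFβ cultures 1 to 3. The lowest TGFβ culture was far above the highest vehicle culture. The log2 fold change was 2.50 (SE 0.18, 95% interval 2.10 to 2.90, edgeR FDR 6.24e-05), a 5.66-fold rise, and it was seen in 3 of 3 pairs. The overlapping row AC009469.1 held 7.47% as many reads and moved alike (log2 fold change 2.37). In the fit restricted to the pairs that shared a lane, the log2 fold change was 2.66 with an FDR of 0.161.

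SYNPO (ENSG00000171992, chr5:149980642-150038782, plus strand) encodes synaptopodin, a partner of α-actinin in actin bundles. It was at 4.72, 3.46 and 3.35 CPM in vehicle and 9.66, 7.78 and 8.53 in TGFβ, and the groups did not overlap. The log2 fold change was 1.17 (SE 0.16, 95% interval 0.80 to 1.54, edgeR FDR 0.00325), a 2.25-fold rise from a low level. TNS1 and SYNPO were the only 2 of the 38 to rise by 2-fold or more, and the only 2 of the 6 that passed in all 6 fits that left out 1 culture.

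TNS3, a second tensin, was at 216, 191 and 200.4 CPM in vehicle and 272, 315 and 251 in TGFβ (log2 fold change 0.46, SE 0.09, edgeR FDR 0.0223). PDLIM7, a PDZ and LIM domain protein that binds actin bundles, was at 52.0, 45.2 and 45.7 CPM in vehicle and 64.2, 76.9 and 60.3 in TGFβ (log2 fold change 0.49, SE 0.10, edgeR FDR 0.0260). In both genes every TGFβ culture lay above every vehicle culture, with culture 2 the highest. Both calls were lost without vehicle culture 2 (FDR 0.117 for TNS3 and 0.127 for PDLIM7), without vehicle culture 3 (0.112 and 0.134) and without TGFβ culture 2 (0.0830 and 0.0929).

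ZYX encodes zyxin, which gathers at strained adhesions and stress fibers. It was at 148, 129 and 129 CPM in vehicle and 196, 209 and 160.5 in TGFβ (log2 fold change 0.48, SE 0.11, edgeR FDR 0.0322). PXN encodes paxillin, a scaffold for adhesion kinases, and was at 68.5, 59.9 and 62.1 CPM in vehicle and 82.0, 89.9 and 76.5 in TGFβ (log2 fold change 0.38, SE 0.09, edgeR FDR 0.0355). Neither gene's groups overlapped. Both calls were lost without vehicle culture 2 (FDR 0.148 for ZYX and 0.173 for PXN), vehicle culture 3 (0.163 and 0.169), TGFβ culture 1 (0.0970 and 0.0943) or TGFβ culture 2 (0.137 and 0.160). EPHA1 shares 823 bases with ZYX and held 17.6% as many reads over its whole row (log2 fold change 0.45). PXN-AS1 shares 2692 bases with PXN and held 33.1% (log2 fold change 0.33). In the shared bases, reads of these neighbors cannot be told apart where strand was not used.

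**Figure D2:**
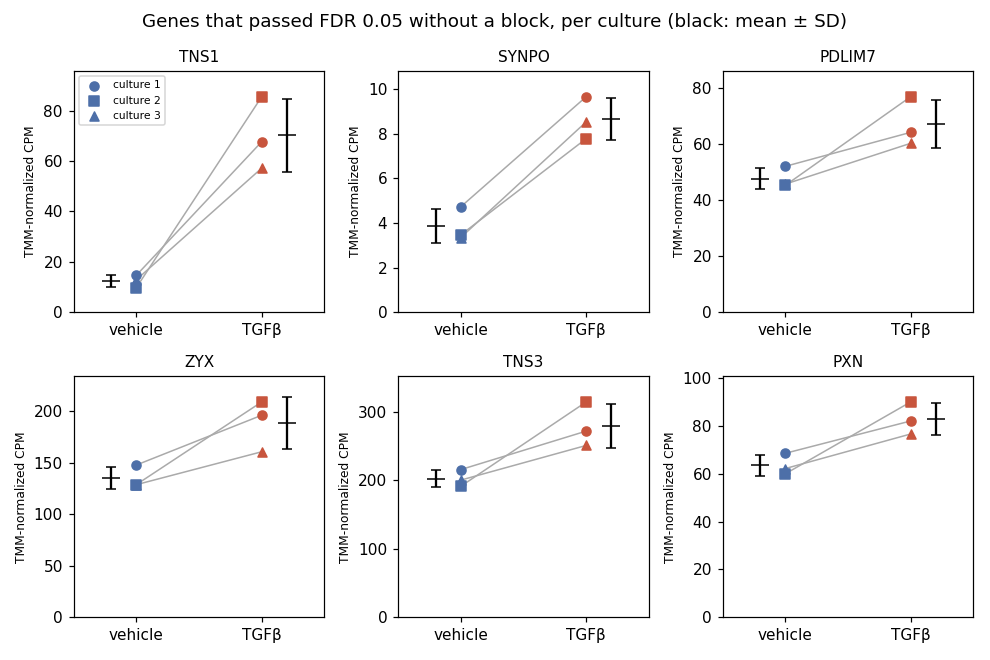
TMM-normalized CPM of the 6 genes that passed without a block, 1 panel per gene with its axis from 0, 1 symbol per culture number, lines joining cultures of the same number and black bars for mean ± SD (n = 3). In every panel the 3 TGFβ cultures lie above the 3 vehicle cultures, and TNS1 moves from 9.71 to 14.6 up to 57.2 to 85.6 CPM.

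Cultures of the same number deviated together in both groups, so the comparison was also fitted with the culture number as a block. With this block 19 of the 38 genes (50.0%) were higher and 1 (2.63%) was lower, beside 8.08% higher and 3.75% lower of all tested genes. All tested genes include rows with few reads, and the shares here and above were not matched for read count. All 6 genes above passed again, with block FDR values of 0.000357 for TNS1 and 2.97e-05 for SYNPO. A further 14 passed with the block only, 13 higher and LIMA1 lower, with log2 fold changes of the 13 between 0.19 and 0.48. Of the 38 genes, 19 had all TGFβ cultures above all vehicle cultures and 1 had them below, beside 10.4% and 8.23% of all tested genes. Pair 2 had the largest ratio in 5 of the 6 genes and in 12 of the 13. How often pair 2 led over all tested genes was not counted, so this is not shown to be particular to these genes.

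**Figure D3:**
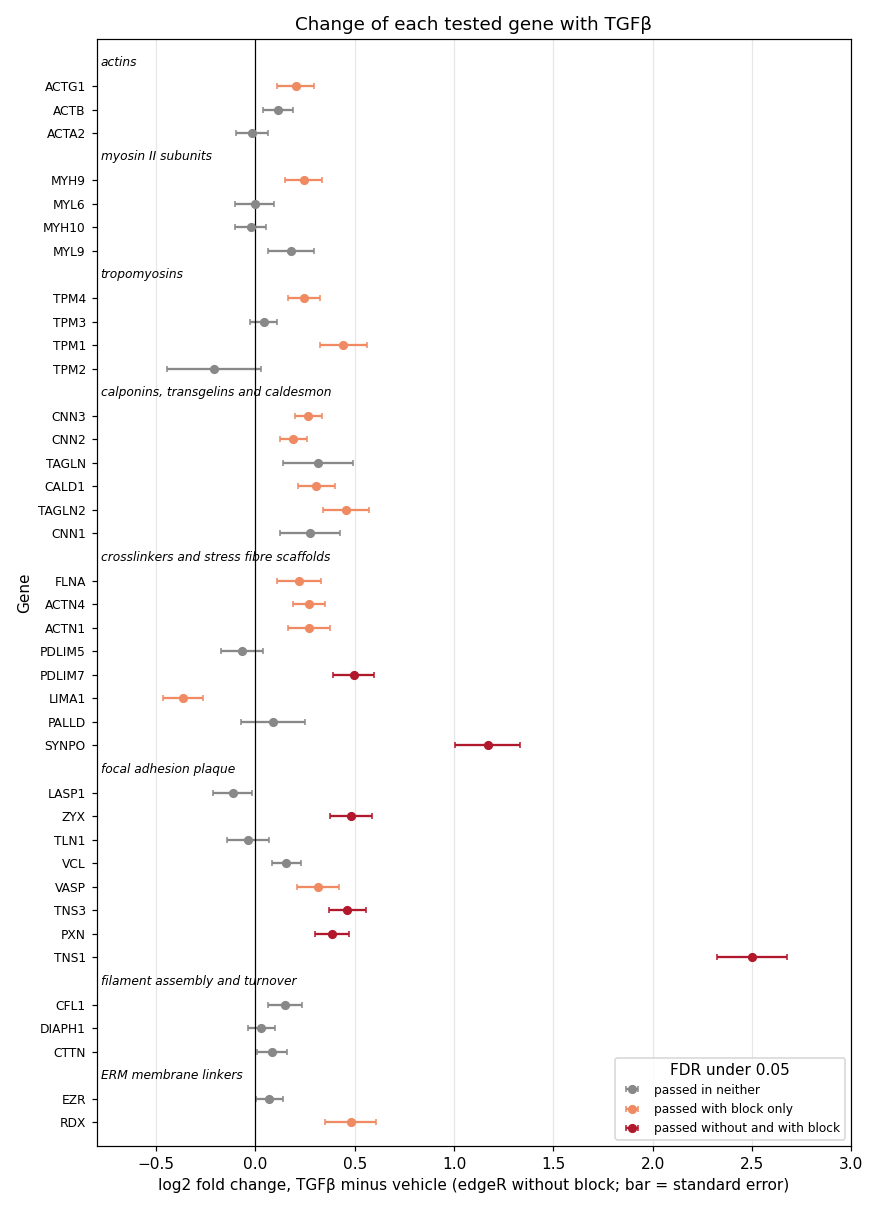
Fitted log2 fold change of each of the 38 tested genes, TGFβ minus vehicle, with its standard error, by role. Dark red genes passed without and with the block (6), orange genes with the block only (14) and grey genes in neither (18), and TNS1 at 2.50 and SYNPO at 1.17 lie apart from the rest.

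Among the actins, 0 of 3 passed without the block. ACTG1 was at 2500.8, 2724.6 and 2637.8 CPM in vehicle and 2674.2, 3319.4 and 3053.8 in TGFβ, and its groups overlapped. Its log2 fold change was 0.20 (edgeR FDR 0.390), and it passed with the block (FDR 0.0274) but not with the block on the pairs that shared a lane (FDR 0.0994). ACTB had a log2 fold change of 0.11 (95% interval -0.05 to 0.28), and its groups did not overlap. ACTA2, the actin of smooth muscle and myofibroblasts, had a log2 fold change of -0.02 (95% interval -0.20 to 0.16). A change of its row beyond these bounds was not seen at 3 h. FAS and ACTA2-AS1, on the other strand of ACTA2, held 78.6% and 35.5% as many reads. These shares count all reads of each row, while the span of FAS shares 734 bases with that of ACTA2 and ACTA2-AS1 shares 5538. Without a known strand setting, reads in the shared bases cannot be told apart. Rows of ACTB pseudogenes held 1.58% as many reads as ACTB.

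Among the myosin II subunits, MYH9, the main non-muscle heavy chain here, was at 1018.0, 884 and 885 CPM in vehicle and 1137.0, 1169.0 and 992 in TGFβ. The groups overlapped, and it passed with the block only (log2 fold change 0.24, edgeR FDR 0.251 without and 0.0159 with the block). The other heavy chain MYH10 and the light chains MYL6 and MYL9 passed in neither fit, with log2 fold changes of -0.02, -0.00 and 0.18. Another gene, RP5-977B1.7, overlaps MYL9 and held 63.8% as many reads. MYL6B shares 1487 bases with MYL6 on the same strand and held 38.5% as many reads over its whole row (log2 fold change -0.23). SMARCC2 shares 514 bases with MYL6 on the other strand and held 14.6%. NDEL1 shares 16207 bases with MYH10 on the other strand and held 19.2% as many reads as MYH10.

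Of the tropomyosins, which set the access of myosin to actin, TPM1 and TPM4 passed with the block only. TPM1 was at 149, 166 and 140.3 CPM in vehicle and 185, 248 and 186 in TGFβ (log2 fold change 0.44, edgeR FDR 0.0816, block FDR 0.00043). TPM4, the most abundant of the 4 per length, had a log2 fold change of 0.24 (edgeR FDR 0.177, block FDR 0.00643), and neither gene's groups overlapped. RP11-244F12.2 and RP11-244F12.3, annotated on the other strand of TPM1, held 11.7% and 6.31% as many reads, with log2 fold changes of 0.54 (edgeR FDR 0.0716) and 0.70 (edgeR FDR 0.00944). Their spans share 1887 and 3354 bases with that of TPM1, and without a known strand setting, reads in the shared bases cannot be told apart. TPM3 and TPM2 had log2 fold changes of 0.04 and -0.21, and TPM2 was low, with a 95% interval of -0.74 to 0.32.

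The calponins, transgelins and caldesmon bind along filaments, and the calponins and caldesmon can dampen myosin. Of the 6, 0 passed without the block and 4 with it. TAGLN2 was at 70.3, 57.4 and 50.9 CPM in vehicle and 82.6, 87.7 and 75.0 in TGFβ (log2 fold change 0.46, edgeR FDR 0.0637, block FDR 0.00181). CNN3, the most abundant of them per length, was at 225, 227 and 213 CPM in vehicle and 268, 271 and 261 in TGFβ (log2 fold change 0.27, edgeR FDR 0.0573, block FDR 0.00279). CALD1 and CNN2 had log2 fold changes of 0.31 and 0.19 (block FDR 0.00324 and 0.0240), and in all 4 the groups did not overlap. On the pairs that shared a lane, CNN2 did not pass (FDR 0.104). TAGLN, a smooth muscle gene, varied more between cultures, at 89.1, 114 and 86.9 CPM in vehicle and 88.9, 152 and 120.4 in TGFβ, and did not pass (log2 fold change 0.31, 95% interval -0.08 to 0.71). PCSK7 overlaps 446 bases of TAGLN and held 50.9% as many reads over its whole row. CNN1 had a log2 fold change of 0.27 and an edgeR FDR of 0.515, and its groups did not overlap.

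Among the 8 crosslinkers and scaffolds, the α-actinins ACTN1 and ACTN4 and the filamin FLNA passed with the block only, beside SYNPO and PDLIM7 above. ACTN4 was at 559, 486 and 498 CPM in vehicle and 653, 612 and 594 in TGFβ (log2 fold change 0.27, edgeR FDR 0.118, block FDR 0.00291). ACTN1 had a log2 fold change of 0.27 (block FDR 0.00694) and FLNA one of 0.22 (block FDR 0.0437). LIMA1, which encodes a LIM domain protein that bundles actin, was the only one of the 38 to fall in the fit with the block. It was at 36.5, 45.3 and 37.4 CPM in vehicle and 32.7, 31.3 and 28.4 in TGFβ, without overlap, and its log2 fold change was -0.37 (edgeR FDR 0.0885, block FDR 0.00652). PDLIM5 and PALLD had log2 fold changes of -0.07 and 0.09 and passed in neither fit, and CBR4, which overlaps PALLD, held 125% as many reads.

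In the plaque, VASP, which speeds filament growth at adhesions, passed with the block only, at 75.4, 88.9 and 86.4 CPM in vehicle and 93.3, 119.8 and 99.1 in TGFβ (log2 fold change 0.32, edgeR FDR 0.176, block FDR 0.00327). Neither core linker passed in either fit. Vinculin (VCL) had a log2 fold change of 0.16 (edgeR FDR 0.389, block FDR 0.0767), and its groups did not overlap. Talin (TLN1) had a log2 fold change of -0.04 with a 95% interval of -0.27 to 0.20, and its groups overlapped. LASP1, the most abundant plaque gene per length at 63.5 ± 6.19 RPKM in vehicle, had a log2 fold change of -0.11 (95% interval -0.33 to 0.10).

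The filament assembly and turnover genes CFL1, DIAPH1 and CTTN passed in neither fit, with log2 fold changes of 0.15, 0.03 and 0.08. Among the ERM proteins, which join actin to the plasma membrane, RDX (radixin) was at 125, 139 and 113 CPM in vehicle and 179, 205 and 142 in TGFβ. Its log2 fold change was 0.48 (edgeR FDR 0.0820), and it had the lowest block FDR of the 14, at 0.000165. EZR (ezrin), the most abundant ERM gene, had a log2 fold change of 0.07 (95% interval -0.08 to 0.22). MSN (moesin) had 52 reads over all 6 cultures (12, 4 and 9 in vehicle, and 10, 9 and 8 in TGFβ) and was not tested. The 18 genes that passed in neither fit had log2 fold changes between -0.21 and 0.31, and their 95% intervals reached from -0.74 to 0.71.

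**Figure D4:**
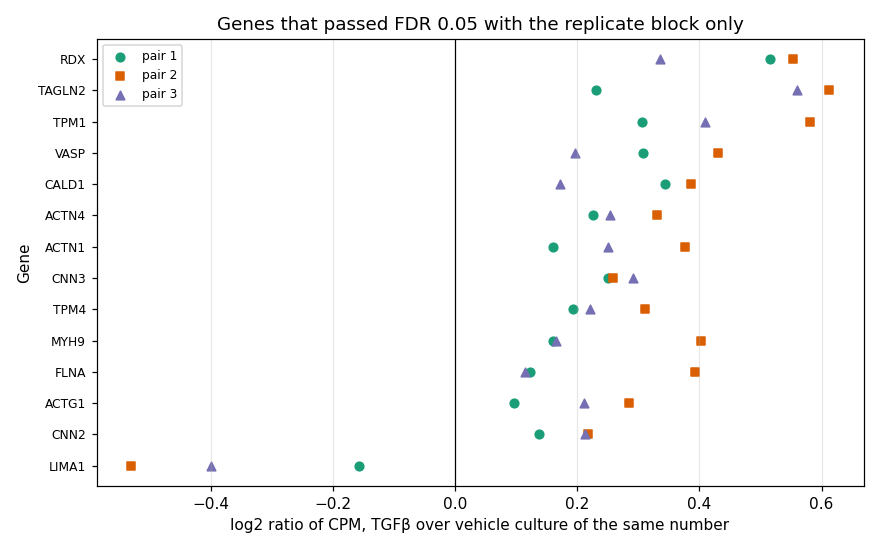
Log2 ratio of CPM, TGFβ over the vehicle culture of the same number, for the 14 genes that passed with the block only, 1 symbol per pair. In 13 genes all 3 ratios are above 0 and in LIMA1 all 3 are below 0, and pair 2 has the largest ratio in 12 of the 13.

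Other genes of the same system were taken as 3 lists, also chosen with earlier results of these data known. Of 26 other focal adhesion genes, 4 rose (15.4%, beside the 3.11% of all tested genes) and 0 fell. ENAH, which encodes a relative of VASP, was at 284, 249 and 224 CPM in vehicle and 560.1, 650.2 and 484 in TGFβ (log2 fold change 1.16, SE 0.12, edgeR FDR 0.000605). BCAR1, an adhesion scaffold, had a log2 fold change of 0.77 (edgeR FDR 0.00268). The remaining 2 were tensins, TNS4 at 0.75 (edgeR FDR 0.0441) and TENC1, or tensin 2, at 0.70 (edgeR FDR 0.00252). TENC1 passed in all 6 fits that left out 1 culture. TNS4 passed in 1 of them, the fit without TGFβ culture 1, and its FDR rose to as much as 0.205, without vehicle culture 3. RP11-983P16.4, on the other strand of TENC1, held 123% as many reads and had a log2 fold change of 0.08.

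Of 47 tested genes for other actin filament proteins, 3 rose (6.38%) and 0 fell: PDLIM4 (log2 fold change 0.99, edgeR FDR 0.0315), the skeletal muscle actin ACTA1 (0.62, edgeR FDR 0.0176) and PDLIM2 (0.59, edgeR FDR 0.0130). When 1 culture was left out, PDLIM4 passed in 1 of 6 fits (only without TGFβ culture 2), ACTA1 in 3 (lost without any 1 vehicle culture) and PDLIM2 in 5 (lost without vehicle culture 3), with FDR values of at most 0.133, 0.0907 and 0.0627. PDLIM4 was low, at 1.18 to 1.74 CPM in vehicle, and P4HA2, which overlaps it, held 2612% as many reads. Of 20 genes of the Arp2/3 complex, which starts branched filaments, and its activators, 0 passed in edgeR and DESeq2 called 0. At an unadjusted p under 0.05 there were 2 higher and 1 lower of the 20, beside 8.69% and 4.97% of all tested genes, and at a share of 3.11% higher over all genes a count of 0 of 20 does not set this list apart. The median log2 fold changes of the 3 lists were 0.21, 0.12 and 0.08 in the order given.

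**Figure D5:**
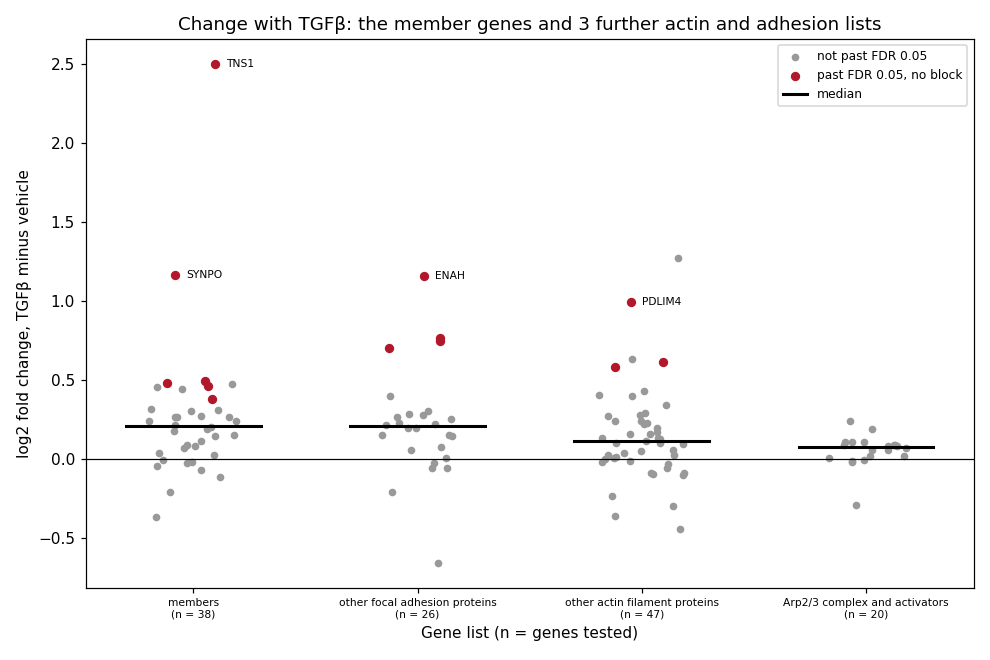
Fitted log2 fold change, TGFβ minus vehicle, of every tested gene of the actin and adhesion set (n = 38) and of 3 further lists, 1 point per gene, red where the FDR without a block was under 0.05 and with black lines at the medians. TNS1 lies highest at 2.50, ENAH leads the further lists' red points at 1.16, and no Arp2/3 gene is red.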

How the data were processed

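Paired reads were mapped by the authors to hg19 and counted with MAPRseq, whose steps in the submitters' processing notes include TopHat2 2.0.6 and HTSeq. The deposited table holds raw counts and the authors' RPKM per gene and culture. The strand setting and annotation release were not given in the sources used here. Groups and culture numbers came from the labels. Genes and lists were chosen with earlier results of these data known.

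Counts were scaled by TMM, filtered with filterByExpr and compared with edgeR 4.0.16 (limma 3.58.1, R 4.3.3; robust quasi-likelihood test, no block, Benjamini-Hochberg adjustment over 22747 genes). Each SE was worked out from the F statistic. On counts drawn at random from the libraries' means, the share of wrong calls lay above the nominal threshold of 0.05, so calls close to it are less secure than their FDR states. RPKM served for levels only. After subtracting each group mean, cultures 1, 2 and 3 correlated with their namesakes at 0.366, 0.227 and 0.316 across genes, and with other numbers at 0.0101 at most, so the block pairs cultures by number. Chi-square per gene between replicates was 21.0 to 46.2, above counting noise. An exact permutation test of 3 against 3 cannot go below 0.1. Full values are given for every gene that passed without the block, shorter ones for those that passed with it only, and the most abundant gene of each role is named. Of the other lists, at most 4 genes that passed are named in each direction. Some genes that were examined are left out of this account. Promoter windows came from RefSeq on GRCh38 and were placed on GRCh37 by exact match. Alternatives were scaling by DESeq2's size factors or by total counts, filtering at 10 counts per library or not at all, testing with DESeq2 1.42.0 or limma-voom, the block, dropping each culture in turn, ratios of mean CPM, and counts per kb. The block on the pairs that shared a lane was added after the data were seen.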

Additional observations from a re-analysis of the deposited data

How the results depend on the processing

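TNS1 and SYNPO were higher under every alternative run, and TNS1 missed the threshold only with the block on the pairs that shared a lane. With DESeq2, 10 genes of the set were higher and 1 lower (LIMA1), and without a filter 8 and 1. The replicate block gave 19 higher and 1 lower, and with the block on cultures 1 and 2 only, 16 and 1. Leaving out 1 culture gave 2 to 8 higher, with 2 without vehicle 2, vehicle 3 or TGFβ 2, and a median log2 fold change of 0.12 (without TGFβ 2) to 0.22. Over all tested genes, DESeq2 called 1012 higher (5.15%) and 408 lower (2.08%), and the run without a filter 840 and 366. The block gave 1837 higher (8.08%) and 853 lower (3.75%), and the block on cultures 1 and 2 gave 1890 and 1173. Leaving out 1 culture gave 394 to 778 higher and 91 to 220 lower. With the block, the other focal adhesion list had 8 of 26 higher (30.8%, beside 8.08% of all tested genes), and 9 on cultures 1 and 2. It had 3 higher, without TNS4, with total-count scaling, either other filter or limma-voom, all run without the block. With the block, the other actin filament list had 11 of 47 higher (23.4%) and 2 lower (PLS1 and DAAM1). On cultures 1 and 2 it had 11 and 2 (PLS1 and MYL6B lower). The Arp2/3 list had 2 of 20 higher with the block (10%, ARPC5 and ABI2), near the 8.08% of all tested genes. It had 1 lower (WASF3), beside 3.75% of all. On cultures 1 and 2 the Arp2/3 list had the same 2 higher and 0 lower. The other actin filament list had 6 higher and 1 lower with DESeq2, 2 lower without a filter, 1 lower with total-count scaling, and 0 to 3 higher when 1 culture was left out (0 without vehicle 3, 1 without vehicle 2).

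Genes that changed sign were close to 0 and never passed. Leaving out 1 culture gave log2 fold changes of -0.0675 to 0.0217 for ACTA2, -0.103 to 0.0830 for MYL6, -0.0729 to 0.0348 for MYH10, -0.159 to 0.0349 for TLN1, -0.164 to 0.0267 for PDLIM5, -0.0107 to 0.0560 for DIAPH1 and -0.0962 to 0.214 for PALLD. DIAPH1 was at -0.0119 with total-count scaling, and MYH10 at 0.0578 with the block on cultures 1 and 2. In the order of levels, 16 to 21 genes changed place when a single vehicle culture was used; counts per kb rest on the same counts and lengths as RPKM and could not change it. The cause of these shifts was not tested. MSN had too few reads to be tested.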
